A study of Mus musculus with 6 samples.

Results

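The clustered protocadherins are cadherin-like adhesion proteins encoded by 3 neighbouring gene clusters, alpha, beta and gamma, on mouse chromosome 18. Every array probe for a mouse transcript whose gene name began with Pcdha, Pcdhb or Pcdhg was taken as a member, which gave 31 genes with 45 probes, out of 27670 names with 41174 probes. The cells were 4T1.2, a mouse mammary carcinoma line of BALB/c origin. Both groups carried the pMSCV retroviral vector, either empty (base vector) or with an insert for Irf7, an interferon regulatory factor. The transduced cells were selected with puromycin and cloned, and each group is 1 pool made of several clones, so that the insert and the choice of clones cannot be told apart. Each group had 3 single-colour arrays from 3 independent experiments, and the p-values measure only the spread between these cultures. The members were chosen by name, but with results of this same contrast in view. Their differences are therefore given as a description, and nothing is read from how many of them passed a threshold.

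In the alpha and gamma clusters each gene has its own promoter and first exon, called variable, which is spliced to a set of constant exons that all genes of the cluster share. Genes of the beta cluster have no shared constant exons, and each codes for its protein in 1 exon. The proteins bind their own kind on facing membranes, and they are best known from neurons, where the choice of promoters gives each cell its own set of surface labels. The promoters are bound by Ctcf and cohesin, kept silent by DNA methylation and by the chromatin protein Smchd1, and reported to be methylated in several human tumours.

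On the files' genome build, mm7, the alpha probes lay between positions 37331289 and 37563623 of chromosome 18, the beta probes between 37643329 and 37897275, and the gamma probes between 38040257 and 38217985. The array covered the clusters unequally. It held 29 probes for all 22 beta genes, but 6 probes for 3 of 14 alpha genes and 10 probes for 6 of 22 gamma genes that the RefSeq gene table lists. In the files' annotation 3 alpha probes and 3 gamma probes were each assigned to transcripts of several genes of their cluster, as constant exons are. Such a probe reads the output of the whole cluster and not of the gene in its name. The files give no exon or intron for the remaining probes. Those assigned to transcripts of only 1 cluster gene are called single-gene probes here. Each member had 1 spot per array, and 11 of the 31 genes had more than 1 probe. The sequences of these probes are not printed here.

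The labels were checked first. The probe for Irf7 read processed signals (background-subtracted brightness in arbitrary units) of 246, 195 and 210.5 on the base-vector arrays and of 4486, 4963 and 5012 on the IRF7 arrays. Its log2 difference, IRF7 minus base vector, was 4.28 (SE 0.0495). Of the 43379 mouse spots on an array, 54.3 to 59.7% were well above background, the scanner software's mark for a detected spot. Of 8 epithelial markers 7 were tested, of which 3 rose and 2 fell, against 31.3% of all 15414 tested genes that were higher and 28.8% lower. The keratins Krt8 and Krt18 and the adhesion protein Cdh1 were well above background on all 6 arrays, and Cldn4 was on none. Krt7 rose by 2.62 (SE 0.048) and Epcam by 1.19 (SE 0.17), while Cldn7 was detected on no IRF7 array and was at least 4.69-fold lower there. Base-vector replicate 1 shared a slide and a scan with all 3 IRF7 arrays, and base-vector replicates 2 and 3 were on a second slide.

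Of the 31 clustered protocadherin genes, 15 had no probe with a detectable signal in these cells and 16 had at least 1. The 16 include Pcdhga7, whose detected probes were all constant-exon probes and so read the whole gamma cluster. They also include Pcdhb18, whose probe the files assign to transcripts of 3 beta genes. Of the 45 probes, 24 were well above background on no array, 3 on 1 or 2 arrays and 14 on all 6. The 24 undetected probes read 5.69 to 31.7 on every array. In the beta cluster 16 of 29 probes were on no array, and the genes from Pcdhb1 to Pcdhb4, Pcdhb7, Pcdhb8, Pcdhb10 to Pcdhb13 and Pcdhb19 were detected by none of their probes. The number of detected members was 18, 18 and 16 on the base-vector arrays and 17, 19 and 17 on the IRF7 arrays, so the groups overlapped. For the beta cluster alone it was 12 on each base-vector array and 10, 11 and 10 on the IRF7 arrays. A probe below detection shows that no signal was measurable with that probe, and an array signal cannot separate fewer expressing cells from less RNA in each cell.

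**Figure D1:**
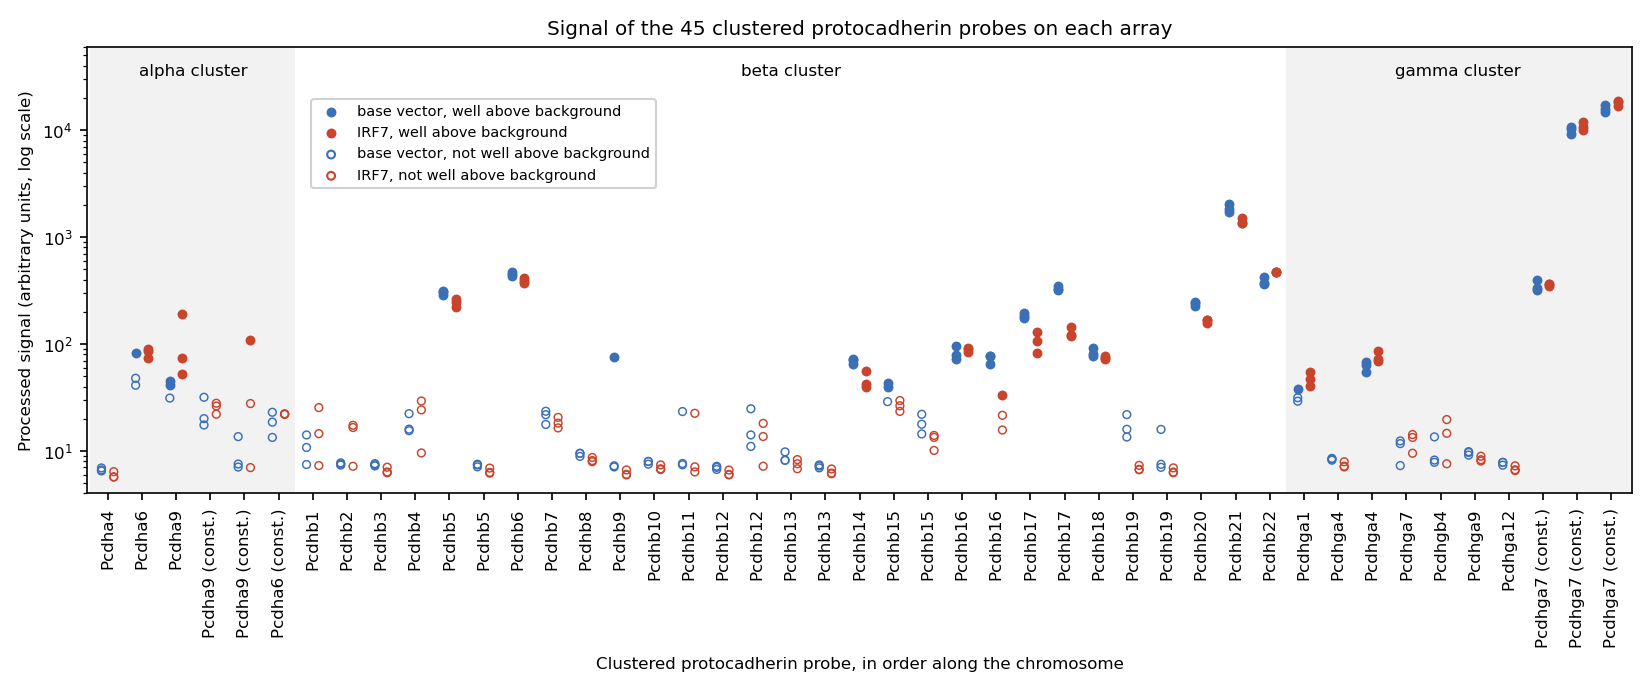
Processed signal (log axis, arbitrary units) of each of the 45 clustered protocadherin probes on each of the 6 arrays, in order along the chromosome, with base-vector arrays in blue, IRF7 arrays in red and open circles where a spot was not well above background. In the beta cluster the detected probes of the IRF7 arrays mostly lie below those of the base-vector arrays, the constant-exon probes of the gamma cluster (const.) overlap or nearly so, and 24 probes are open on every array.

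A probe was compared where at least 3 of the 6 arrays had it well above background, which left 18 members (40.0%, against 57.1% of all probes), 2 of the alpha, 11 of the beta and 5 of the gamma cluster. The level tested was log2 of the processed signal minus that of the array's 75th percentile. Of these 18, 9 were below the limma adjusted p threshold of 0.05, all 9 of them lower in the IRF7 cells. Across all 23518 probes tested, 58.6% passed, 28.2% lower and 30.4% higher. The median member differed by -0.27 and the median probe of the array by 0.02. All 9 lower members belonged to the beta cluster and carried the names of 8 genes, though the Pcdhb18 probe was assigned to transcripts of 3 beta genes. Without scaling between arrays, which moved the median of all probes from 0.02 to 0.22, 7 members were lower and 4 higher, and 2458 of all probes were lower and 9463 higher. All 9 kept a negative difference under every scaling tried.

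The differences past the threshold lay in the beta cluster. Among its 11 tested probes the median log2 difference was -0.60, and it was -0.63 within the slide that held both groups, where base-vector replicate 1 was the only base-vector array. The median level of these probes, relative to each array's 75th percentile, was -2.39, -2.35 and -2.28 on the base-vector arrays and -3.46, -3.43 and -3.36 on the IRF7 arrays. No IRF7 array reached the level of a base-vector array.

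Pcdhb17 is covered by a pair of probes whose starts lie 356 bases apart. The probe A_51_P337771 read 345, 318 and 330.1 on the base-vector arrays and 118, 120.1 and 143 on the IRF7 arrays, a 3.00-fold lower level (log2 difference -1.58, SE 0.056). With the probe A_52_P180741 the signals were 181, 174 and 195 against 81.6, 129.8 and 107, or 2.02-fold lower (-1.02, SE 0.15). The groups did not overlap with either probe. Within the shared slide the latter read -0.89 and missed the threshold (limma adjusted p = 0.0514).

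For Pcdhb16 the probes disagreed on the size of the difference. The probe A_52_P24851 read 76.6, 64.7 and 77.0 on the base-vector arrays and 15.7, 33.0 and 21.5 on the IRF7 arrays, where it was well above background on IRF7 replicate 2 only. Its log2 difference was -1.90 (SE 0.25), and -0.79 with normexp, a model-based background correction that adds an offset of 50 and so compresses dim signals. The probe A_51_P191743, which starts 1094 bases before it, read 96.0, 79.1 and 72.6 against 84.1, 91.6 and 90.4. Its difference was -0.09 (SE 0.072), the groups overlapped, and it did not pass. With normexp its difference was -0.15 and passed (limma adjusted p = 0.0271). Without scaling it was 0.11, of the opposite sign, and did not pass.

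Pcdhb21 (A_51_P317181) read 2028, 1724 and 1813 in the base-vector cells and 1355, 1361 and 1502 in the IRF7 cells. Relative to the 75th percentile its levels were 0.62 ± 0.03 (SD, n = 3) and 0.02 ± 0.05 (SD, n = 3), so it was 1.51-fold lower (-0.60, SE 0.040). The groups were well apart.

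Pcdhb22 is the last gene of the beta cluster, and its probe starts 4812 bases after that of Pcdhb21. Its signals were 424, 363 and 374 in the base-vector cells and 469, 473 and 477 in the IRF7 cells. The unscaled signals did not overlap, the scaled levels did, and the scaled difference of 0.09 (SE 0.048) did not pass. Without scaling it was 0.29 and passed (limma adjusted p = 0.0276).

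Pcdhb20 read 247, 226 and 242 against 159, 166 and 169, which was 1.66-fold lower (-0.73, SE 0.044). Pcdhb14 was dimmer, at 71.9, 71.6 and 65.2 against 39.6, 56.4 and 41.8 (-0.82, SE 0.14). The groups were separate for both, but Pcdhb14 read -0.48 with normexp, and -0.76 within the shared slide, where it did not pass (limma adjusted p = 0.0639).

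Farther towards the start of the cluster, Pcdhb5 (A_51_P257292) read 314, 287 and 305 in the base-vector cells and 223, 247 and 265 in the IRF7 cells (-0.51, SE 0.041). Pcdhb6 read 472, 431 and 452 against 369, 385 and 418 (-0.41, SE 0.036). Neither overlapped between the groups. A second Pcdhb5 probe, which starts 230 bases farther on, read 6.19 to 7.51 on all arrays and was well above background on none.

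Pcdhb18 read 92.7, 77.8 and 80.2 in the base-vector cells and 72.0, 77.1 and 74.3 in the IRF7 cells (-0.36, SE 0.049). The files assign its probe to transcripts of 3 beta genes, so it cannot be credited to Pcdhb18 alone. Without scaling Pcdhb18 read -0.16 and Pcdhb6 read -0.21, and neither passed (limma adjusted p = 0.196 and 0.0874).

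Pcdhb15 and Pcdhb9 were below the filter. One Pcdhb15 probe read 43.4, 28.9 and 39.8 in the base-vector cells, where it was well above background on 2 arrays, and 29.6, 23.4 and 26.4 in the IRF7 cells, where it was on none. The other Pcdhb15 probe, which shares 20 bases of position with it, was on none. Pcdhb9 read 75.4 on base-vector replicate 2 and 5.96 to 7.26 on the other 5 arrays.

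**Figure D2:**
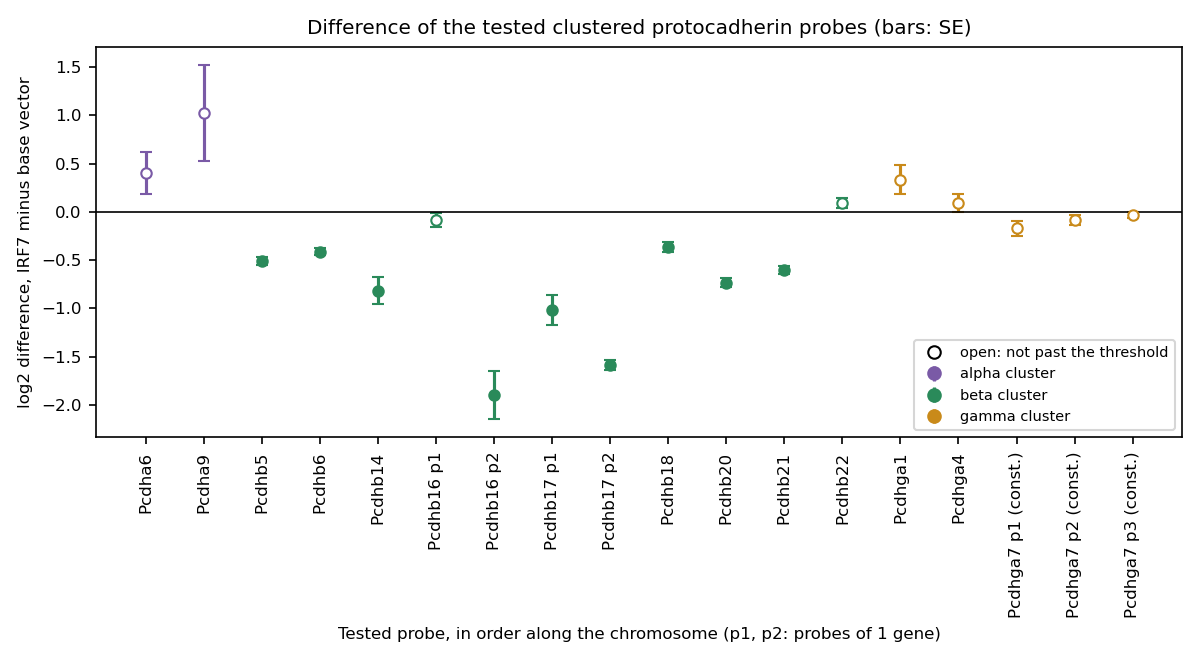
Log2 difference, IRF7 minus base vector, of the 18 tested clustered protocadherin probes in order along the chromosome, with bars of 1 SE from the limma fit over 3 arrays per group, filled where the adjusted p was under 0.05. The filled points are 9 beta probes between -1.90 and -0.36, and all alpha and gamma points are open.

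The shared exons of the gamma cluster, by contrast, did not differ between the groups by more than the spread. The probe A_51_P474518 read 17141, 14782 and 15933 in the base-vector cells and 16783, 18352 and 18616 in the IRF7 cells. After scaling the levels were 3.72 ± 0.04 (SD, n = 3) and 3.69 ± 0.02 (SD, n = 3), a difference of -0.03 (SE 0.035). The probe A_51_P470769, which shares 40 of its 60 bases of position with the former and is no independent measurement, read 10619, 9155 and 10277 against 10042, 10679.6 and 11949.5 (-0.08, SE 0.050). A separate constant-exon probe, A_52_P667913, read 400.3, 336 and 317 against 364, 360.3 and 345 (-0.17, SE 0.081). The scaled levels of the groups overlapped with each of the 3 probes, none passed, and without scaling all 3 differences were positive, at 0.17, 0.12 and 0.03.

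The gamma probes outside the constant exons were dim or undetected. Of 7 such probes, 5 were on no array, among them those of Pcdhgb4, Pcdhga9 and Pcdhga12 and the single-gene probe of Pcdhga7. Pcdhga4 (A_51_P131879) read 67.6, 63.3 and 55.1 in the base-vector cells and 69.8, 85.4 and 73.1 in the IRF7 cells (0.10, SE 0.095). Pcdhga1 read 29.2, 37.9 and 31.5 against 40.8, 47.5 and 54.5, with detection on 1 base-vector array and all 3 IRF7 arrays. Its scaled difference was 0.33 (SE 0.15), with overlapping levels, and did not pass. It passed within the shared slide, at 0.60 (limma adjusted p = 0.0204), without scaling, at 0.53, and without base-vector replicate 2, at 0.48 (limma adjusted p = 0.0192), and was 0.03 with normexp.

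The alpha cluster was near the limit of detection throughout. Its 3 constant-exon probes were well above background on no array except for 1 probe (A_52_P404535) on IRF7 replicate 2. That probe read 13.6, 7.07 and 7.54 in the base-vector cells and 6.98, 109.9 and 27.7 in the IRF7 cells. The single-gene probe of Pcdha9 was also highest on IRF7 replicate 2, with 41.1, 45.2 and 31.2 against 73.3, 193 and 52.7. Its difference of 1.03 (SE 0.50) did not pass, and it was 0.49 without IRF7 replicate 2 and 0.44 with normexp. Leaving out IRF7 replicate 3 instead gave 1.46, which passed (limma adjusted p = 0.0403), and it passed with median centring, at 0.99, and without scaling, at 1.23. Pcdha6 read 82.6, 41.1 and 47.8 against 73.2, 85.9 and 90.0 (0.40, SE 0.22), with overlapping groups. It did not pass, and without base-vector replicate 1 it was 0.65 and passed (limma adjusted p = 0.0024). Without scaling it passed too, at 0.60, and within the shared slide it was -0.09. Pcdha4 was detected on no array.

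The genes around the clusters showed no common direction. Every other named gene with a probe within 1 Mb of the clustered protocadherins was taken, which gave 37 genes, of which 35 were tested. Of these 11 rose and 12 fell, against 31.3% of all 15414 tested genes that were higher, 28.8% lower and 60.1% past the threshold in all. Their median log2 difference was -0.04, against 0.03 over all genes. Without scaling the split was 12 higher and 3 lower. The 4 with the smallest p were Hbegf, a ligand of the EGF receptor (1.11, SE 0.044), the growth factor Fgf1 (-1.73, SE 0.070), Tmco6 (-0.71, SE 0.041) and Spry4, an inhibitor of receptor tyrosine kinase signalling (0.59, SE 0.050).

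Between the beta and gamma clusters, Taf7 and Slc25a2 read higher in the IRF7 cells, and 3222401L13Rik was detected on no array. Taf7, a subunit of the general transcription factor TFIID, read 579, 465 and 416 in the base-vector cells and 950, 893 and 1007 in the IRF7 cells, 1.71-fold higher (0.78, SE 0.097, limma adjusted p = 0.00108). Another Taf7 probe (A_52_P83959) read 0.53 (SE 0.093). The remaining one (A_52_P520940) was detected on no base-vector array and on each IRF7 array, at least 1.41-fold higher. That probe passed the detection filter only through the IRF7 arrays, where it read 55.1, 42.8 and 66.1. Its log2 difference was 0.22 with normexp and did not pass (limma adjusted p = 0.0636), nor did it with slide as a block (limma adjusted p = 0.119). Slc25a2, a mitochondrial ornithine carrier, read 13.5, 16.4 and 10.7 on the base-vector arrays and was detected on none of them. On the IRF7 arrays it read 37.1, 46.4 and 40.0 and was detected on each, which is at least 1.08-fold higher. It passed the detection filter only through the IRF7 arrays, and its log2 difference was 0.22 with normexp. Probes of the array that were well above background nowhere read up to 46.5, so its IRF7 signals lay near the limit of detection. Each bound sets the mean of the detected group against the lowest detectable signal of the other group's arrays.

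**Figure D3:**
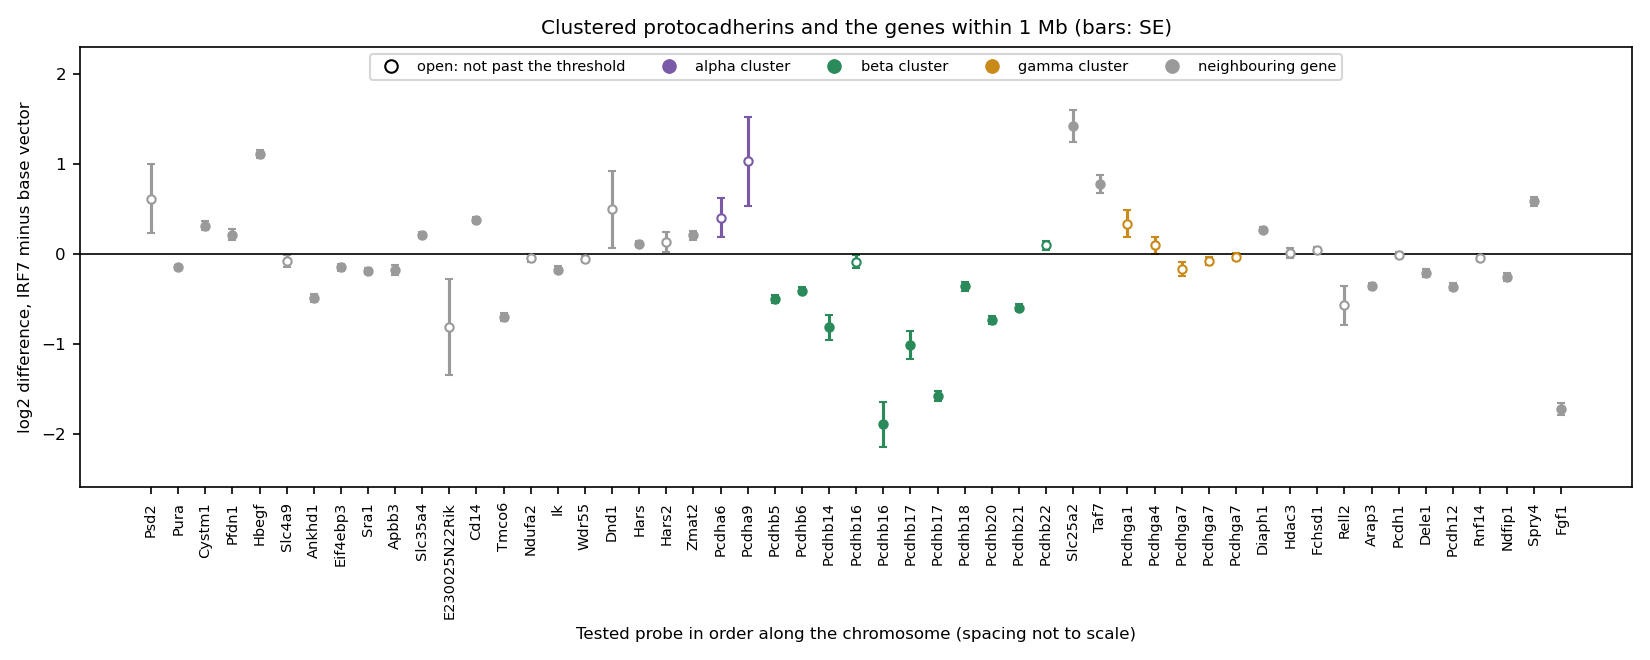
Log2 difference, IRF7 minus base vector, of the 18 tested clustered protocadherin probes (coloured by cluster) and of the 35 tested genes within 1 Mb of them (grey), in order along the chromosome with equal spacing, bars of 1 SE and filled points past the threshold. The filled beta points all lie below 0, Pcdhb22 at the end of the cluster is open at 0.09, and Slc25a2 and Taf7 beside it are filled above 0.

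Of 23 non-clustered protocadherins and large cadherins on the array 10 had no probe well above background on any array. Tested were 8, of which 1 rose and 2 fell, against 60.1% of all tested genes past the threshold. Without scaling 4 passed, all of them higher. Pcdh12, a protocadherin of endothelium and placenta that lies within 1 Mb of the clusters, read 1521, 1378 and 1446 against 1237, 1265 and 1372 (-0.37, SE 0.036, limma adjusted p = 0.000435). Pcdh9 rose by 0.88 (SE 0.19), from signals of 28.2, 38.8 and 40.7 to 70.8, 72.0 and 82.8, and was 0.28 with normexp. The giant cadherin Fat1 fell by 0.25 (SE 0.054), and did not pass with slide as a block (limma adjusted p = 0.0717) or without scaling. Celsr2 read 0.20 (SE 0.11), not past the threshold, and passed with the replicate number as a block (limma adjusted p = 0.0384). Its other tested probes had the opposite sign, at -0.39 and -0.82, so the probes of Celsr2 disagreed. Pcdh1, which lies near the clusters too, read -0.02 (SE 0.035).

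Genes that act on the protocadherin promoters were all detected, with differences between -0.64 and 0.40. Of 34 tested, 9 rose and 7 fell, with a median of 0.09, against 31.3% of all tested genes that were higher and 28.8% lower. The counts depended on the setting, at 4 higher and 4 lower with slide as a block, 3 and 4 within the shared slide, 2 and 3 with arrays centred on their median, and 19 and 1 without scaling. Ctcf read 5791, 5031 and 5408 against 5430, 5709 and 6027. Scaled, it fell by 0.12 (SE 0.034, limma adjusted p = 0.0258), but within the shared slide it did not pass (limma adjusted p = 0.119), and without scaling the difference was 0.08, of the opposite sign. With 1 array left out it passed in 1 of 6 fits, that without base-vector replicate 2, and the limma adjusted p reached 0.0813.

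Among the silencers, Smchd1 read a difference of 0.00 (SE 0.042), the methyltransferase Dnmt3b 0.04 (SE 0.050) and the histone methyltransferase Setdb1 -0.02 (SE 0.036), none past the threshold. The 4 with the smallest p were Trim28, a corepressor that recruits Setdb1 (-0.64, SE 0.041), Yy1, a DNA-binding regulator (0.31, SE 0.028), the cohesin subunit Stag1 (0.40, SE 0.038) and the histone methyltransferase Ehmt1 (-0.26, SE 0.030). Trim28 lies on chromosome 7, whose 1136 tested genes had a median of -0.38. Ehmt1 read -0.06 without scaling and did not pass. The other tested Yy1 probes read 0.18 and -0.05, so the probes of Yy1 disagreed in sign.

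Binding partners, signal carriers and proteases of these proteins numbered 26 tested, of which 8 rose and 8 fell, with a median of 0.03, against 31.3% of all tested genes that were higher and 28.8% lower. With slide as a block or within the shared slide it was 6 and 4, with median centring 4 and 4, and without scaling 10 and 3. Marcks, a membrane-bound actin regulator, read 2974, 2556 and 2760.4 in the base-vector cells and 576, 613 and 627 in the IRF7 cells, a fall of 5.24-fold (-2.39, SE 0.036). Ptk2b and Ptk2, the pair of focal adhesion kinases that gamma protocadherins bind, rose by 1.49 (SE 0.038) and 0.62 (SE 0.036). Cyfip1, a subunit of the WAVE actin complex that alpha protocadherins recruit, fell by 0.53 (SE 0.030). Like Trim28 it lies on chromosome 7, whose 1136 tested genes had a median of -0.38. The sheddase Adam10, which cuts these proteins, read -0.14 (SE 0.10) and did not pass.

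**Figure D4:**
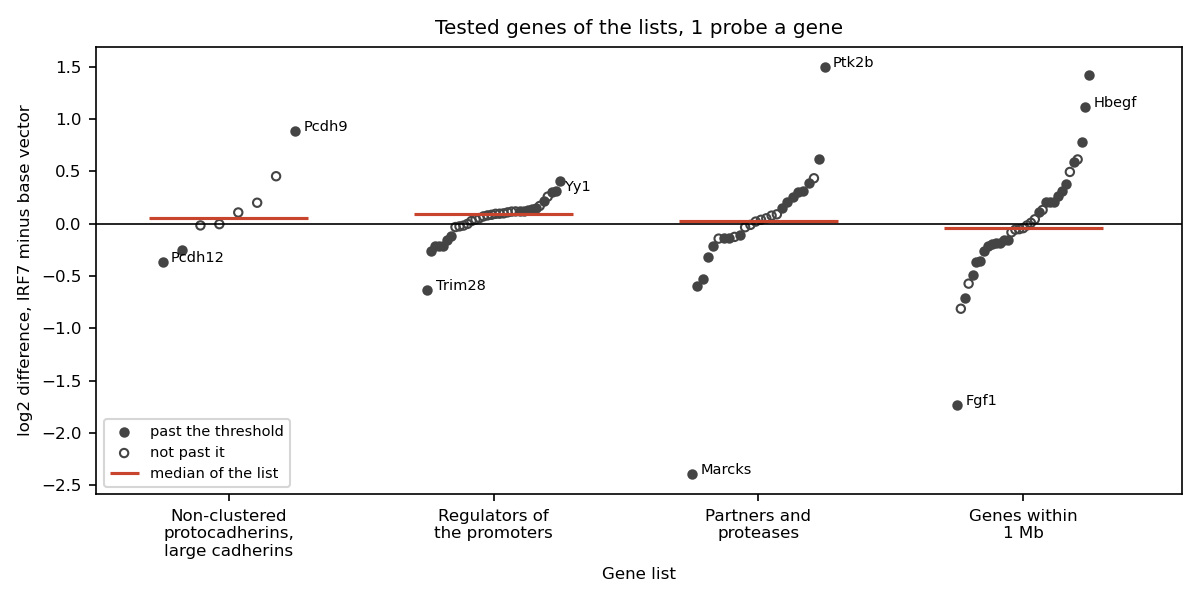
Log2 difference, IRF7 minus base vector, of each tested gene (1 probe a gene) in 4 lists, ordered by value within a list, filled where the limma adjusted p was under 0.05, with the list's median as a red line. The medians are 0.05, 0.09, 0.03 and -0.04, and Marcks, Ptk2b, Fgf1 and Hbegf lie far from them, as does the topmost gene within 1 Mb, Slc25a2, whose plotted fitted value of 1.42 rests on undetected base-vector signals.

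Markers of other cell types were read beside the members. The share to set beside each list here, over all 15414 tested genes, was 60.1% past the threshold, 31.3% higher and 28.8% lower. Of 20 neural markers 9 were on no array, among them Map2, Snap25, Syp, Syt1, Nefl and Gfap. Tested were 6, of which 4 rose, S100b, Ncam1 and Mbp among them, and none fell. Within the shared slide Ncam1 and Mbp did not pass (limma adjusted p = 0.241 and 0.248). The list's summed unscaled signal was 5573 to 6673 in the base-vector and 6969 to 8040.3 in the IRF7 arrays, most of it from Mbp, with 4675 to 5657 and 5937 to 6839. The Mbp probes disagreed: the one used here had a log2 difference of 0.13, and the other tested ones 0.80 and -0.34. Of 7 haematopoietic markers 4 were tested and 0 passed with limma, and 0 were at an unadjusted p under 0.05, and their summed signal was 774 to 952 and 925 to 1177. Of 7 fibroblast and endothelial markers 3 were on no array (Col1a1, Kdr and Pecam1), Pdgfra and Dcn fell and Cdh5 rose. Dcn was detected on each base-vector array and on no IRF7 array, at least 3.12-fold lower there. It passed the detection filter only through the base-vector arrays. The list's summed signal was 6526 to 7446 in the base-vector and 3466 to 3937 in the IRF7 arrays. Most of it came from Pdgfra, with 6268 to 7128 and 3108 to 3554. The part of these markers in the protocadherin differences was not tested.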

How the data were processed

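Per the labels' protocols, Cy3-labelled cRNA was made from 0.2 ug of total RNA, and per the submitters' processing notes the extraction software was Agilent Feature Extraction 9.5.3.1. The deposited scanner files hold linear intensity values, corrected for background and spatial trend on each array but not brought to 1 scale across arrays, per the file headers. The deposited value table held the same intensities (largest difference 0). Of 45018 spots, 1639 controls and 111 to 121 outlier spots per array were left out, and spots of a probe were averaged. Log2 of the processed signal minus the array's 75th percentile (1153 to 1467) was fitted with limma 3.58.1 in R 4.3.3 (lmFit, eBayes, all 6 arrays, no block) over the 23518 probes well above background on at least 3 arrays, with Benjamini-Hochberg adjustment over all of them. The probe was the unit because probes of 1 protocadherin can read different exons. In lists the kept probe with the highest mean level stood for a gene. Named genes were Irf7, the members detected on any array and, outside the cell type marker lists, the 4 tested genes of each list lowest in p. List genes detected on all arrays of 1 group and none of the other were also named, again outside the marker lists (Slc25a2). Ctcf, Smchd1, Dnmt3b, Setdb1, Adam10, Pcdh1, Taf7 and the cell type markers were named for their role or position, after their values were seen. Members and lists were chosen with earlier results of these data known. Symbols came from the file's accession (22944 probes), symbol (6664) or older symbol (3108) in the RefSeq table of GRCm38.p6, used for names only. The test was checked on simulated data. The number of arrays limits the precision.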

Additional observations from a re-analysis of the deposited data

How the results depend on the processing

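Over the alternatives, 317 of the recomputed differences of tested members kept their side of the threshold, 13 came to pass it and 4 no longer did. No called member changed sign. Members not past the threshold could change sign and still count as kept, as Pcdha6 did with slide as a block (0.40 to -0.09). For the 39 other named probes, 688 differences were kept by the same rule, 2 came to pass and 44 no longer did, most of these for Ctcf, Ncam1, Mbp and A_52_P345548. Of the called ones among these, Ctcf (0.082) and A_52_P345548 (0.079) changed sign without scaling. The 9 lower members were all still called with normexp, quantile normalization, median centring, slide as a block and each array left out, and 7 of them were without scaling and within the shared slide. With no filter on dim probes 21497 probes, 23 members and 10 non-clustered relatives passed, since probes without signal were tested too, and with the scanner's weaker detection mark (positive and significant) 30 members were kept in place of 18. The regulators past the threshold numbered 5 with median centring, 8 with slide as a block and 7 within the shared slide; the partners numbered 8, 10 and 10; the neighbouring genes numbered 12 with median centring and 15 without scaling. The cause was not tested. Arrays with the same replicate number did not pair clearly: their deviations correlated across probes at 0.04, 0.23 and 0.22, though each array correlated best with its own number. With the replicate number as a block 14474 probes and 10 members passed, the added one being a gamma constant-exon probe (A_52_P667913, limma adjusted p = 0.0131). Leaving out each array in turn gave 9 to 10 members and 11889 to 13340.0 probes. Signals near background limit the alpha cluster and the gamma probes outside the constant exons.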

Other observations

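Inside the span of the clusters 13 further probes carried other names. One of them, A_52_P345548, starts 15066 bases before the first constant-exon probe of the gamma cluster and is named in the files by a clone only. It was well above background on all 6 arrays, with 581, 501 and 552 in the base-vector cells and 537, 593 and 595 in the IRF7 cells, a log2 difference of -0.12 (limma adjusted p = 0.0478). With slide as a block it was -0.11 and did not pass, without scaling it was 0.08, and over its leave-one-out fits the adjusted p reached 0.141. This probe was singled out after its values were seen.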
